A study of Homo sapiens with 12 samples.

Results

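The subunits and inhibitors of NF-kB were followed in Ewing sarcoma cells that were induced to express c-Jun and c-Fos, which form the AP-1 transcription factor. The members are 10 genes taken by symbol, of 58721 genes in the count table: the subunits NFKB1, NFKB2, REL, RELA and RELB, the inhibitors NFKBIA, NFKBIB and NFKBIE, and TNFAIP3 and BIRC3, which act in ubiquitin feedback and survival signaling. All 10 were found and all 10 entered the test. The study sequenced polyadenylated RNA from EW8 and TC71, both established Ewing sarcoma cell lines. Each line carried a lentiviral cassette with c-Jun and c-Fos behind a doxycycline-responsive promoter, together with a transactivator driven by the EF1a promoter. Each line was sampled with vehicle (DMSO) and with 2000 ng/ml doxycycline for 72 h, which gives 4 groups of 3 libraries (12 in all). The vehicle cells therefore carried the cassette too. Cells without the cassette but with doxycycline were not analysed here, so the drug and the transgenes cannot be told apart. Nothing in the labels says that the libraries of a group came from separate cultures, so p-values measure only the spread between these libraries.

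On hg38 (genome coordinates of the count table), the subunit genes lie at chr4:102501329-102617302 (NFKB1), chr10:102394110-102402529 (NFKB2), chr2:60881521-60931610 (REL), chr11:65653596-65663094 (RELA) and chr19:45001430-45038198 (RELB). The inhibitor genes lie at chr14:35401511-35404749 (NFKBIA), chr19:38899700-38908893 (NFKBIB) and chr6:44258166-44265788 (NFKBIE). TNFAIP3 lies at chr6:137867188-137883312 and BIRC3 at chr11:102317450-102339403. Counts cover the annotated exons of each gene.

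NF-kB proteins bind DNA as dimers of 5 related subunits. RELA, REL and RELB carry a transactivation domain, whereas NFKB1 and NFKB2 encode the precursors p105 and p100, which are processed to p50 and p52. In resting cells the dimers are held in the cytoplasm by IkB proteins, and stimuli such as TNF or interleukin-1 activate the IkB kinase complex, which marks IkB for degradation. Many genes of the system are themselves known targets of NF-kB, among them NFKBIA (IkBa), TNFAIP3 (A20, a ubiquitin-editing enzyme) and BIRC3 (cIAP2, a ubiquitin ligase of TNF receptor complexes), so that they form feedback loops. RNA levels do not report the nuclear or DNA-bound protein.

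Libraries held 42860665 to 60853649 counts, where each mate of a read pair counted once. JUN rose from 19.8–24.6 to 422–504 CPM (TMM-scaled counts per 1000000 counts) in EW8 and from 18.04–25.4 to 705–814 CPM in TC71, and FOS rose from 35.9–37.6 to 999–1139 CPM and from 11.2–12.1 to 1450–1686 CPM. All 10 listed Ewing sarcoma markers had a mean of at least 1 CPM in each of the 4 groups. Of these, 1 rose and 6 fell in EW8 and 2 rose and 6 fell in TC71 (edgeR adjusted p under 0.05). At that threshold 21.9% of all genes tested rose and 22.0% fell in EW8, and 25.1% and 20.4% in TC71. Of 12 leukocyte markers, 3 and 4 reached 1 CPM in EW8 with vehicle and doxycycline, and 1 and 2 in TC71. Their summed level was 86.6–95.8 and 89.9–94.0 CPM in EW8 against 4.25–5.22 and 4.73–6.03 CPM in TC71, and in EW8 it was mostly PTPRC (CD45), at 59.6–77.4 CPM there and at most 0.145 CPM in TC71. In TC71 it was mostly CD79A, a B cell receptor component, at 2.89–4.50 CPM against 11.1–21.7 CPM in EW8. The markers CD3D, MS4A1 and TYROBP had 0 counts in all 12 libraries. Of 8 epithelial and endothelial markers, the summed level was 17.8–18.9 CPM with vehicle and 88.1–97.7 CPM with doxycycline in EW8 and 177–215 and 231–246 CPM in TC71, where it was mostly the keratin KRT18 (174–226 CPM). Of the 7 that were tested, 4 were called higher in each line, against 11.4% and 12.3% of all genes tested. In EW8 the keratin KRT8 rose from 4.38–6.11 to 29.8–33.7 CPM and the endothelial VWF from 0.044–0.11 to 1.51–3.58 CPM. In TC71 the endothelial PECAM1 rose from 0 counts to 3.23–4.27 CPM and VWF from 0 counts to 0.24–0.36 CPM. PECAM1 was also higher with doxycycline in EW8, at 32.7–40.1 CPM against 6.45–8.01 CPM with vehicle. The epithelial EPCAM went from 0.23–1.19 to 11.3–12.6 CPM in TC71 and was at most 0.37 CPM in EW8. The part of these markers in the results was not tested. TC71 vehicle replicate 1 stood apart from the other libraries of its group, with a chi-square per gene of 62.5 and 65.0 against them, whereas every other pair of replicates was between 5.4 and 11.1. Values without it are given where a call rests on it.

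In EW8, all 10 members rose with doxycycline, and 6 of them by more than 2-fold. BIRC3, TNFAIP3, RELB, NFKB2, NFKBIA and NFKB1 rose most, RELA, REL and NFKBIE rose by less than 2-fold, and NFKBIB rose least. A gene was counted as passing at an adjusted p under 0.05 by edgeR's quasi-likelihood test with Benjamini-Hochberg adjustment over all 21013 genes tested, and as called when its log2 fold change was also beyond 1. Over all genes tested in EW8, 21.9% passed as higher, 22.0% passed as lower and 11.4% were called higher. The median log2 fold change was 2.03 over the members and -0.03 over all genes tested. These are bulk samples, so that more RNA per cell and more cells of a kind with the RNA cannot be told apart.

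**Figure D1:**
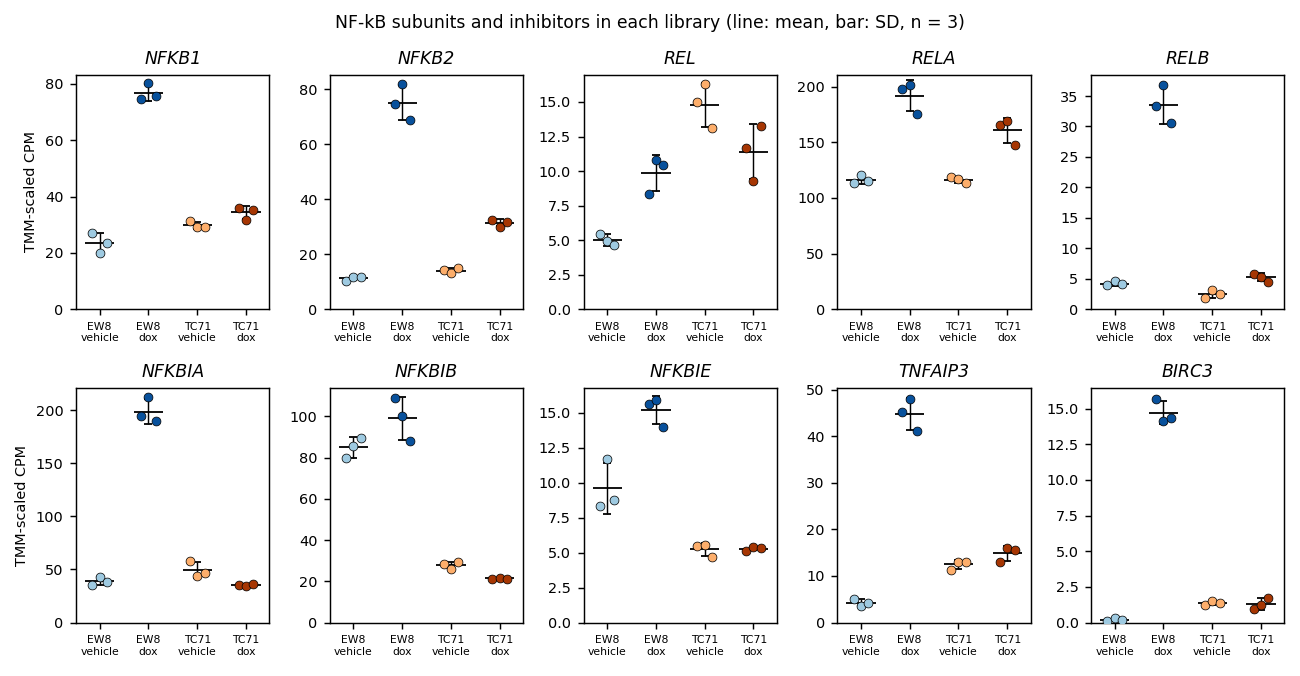
Level of each member in CPM, on an axis that starts at 0 and differs between panels, in the 3 libraries of each group (points), with the mean (line) and SD (bar). In EW8 the doxycycline libraries lie above the vehicle libraries in every panel except that of NFKBIB, where the ranges overlap (79.7–89.5 with vehicle and 88.2–109 CPM with doxycycline).

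Among the precursor subunits in EW8, NFKB2 was at 10.4, 11.7 and 11.6 CPM with vehicle and at 74.7, 81.8 and 69.0 CPM with doxycycline. The groups were far apart, and the log2 fold change was 2.74 ± 0.09 (SE, adjusted p = 2.46e-14 by edgeR). NFKB1 was at 27.1, 20.1 and 23.6 CPM with vehicle and at 74.7, 80.3 and 75.7 CPM with doxycycline, a log2 fold change of 1.70 ± 0.09 (edgeR adjusted p = 4.24e-11). In both genes every doxycycline library lay above every vehicle library.

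The subunits with a transactivation domain differed in their starting levels and in their change. RELB, the usual partner of p52, was at 3.97, 4.58 and 4.10 CPM with vehicle and at 33.4, 36.8 and 30.5 CPM with doxycycline. Its log2 fold change of 2.99 ± 0.16 (edgeR adjusted p = 2.77e-11) was the largest of the 5 subunits. RELA, the usual partner of p50, was at 113, 121 and 115 CPM with vehicle and at 198, 202 and 176 CPM with doxycycline, a log2 fold change of 0.72 ± 0.07 (edgeR adjusted p = 3.9e-08). REL (c-Rel), known best from lymphoid cells, was at 5.46, 4.93 and 4.65 CPM with vehicle and at 8.38, 10.8 and 10.5 CPM with doxycycline. Its log2 fold change of 0.98 ± 0.15 (edgeR adjusted p = 3.99e-05) lay just under the limit of 1 and passed it without EW8 vehicle replicate 1 (1.04), EW8 doxycycline replicate 1 (1.13), TC71 vehicle replicate 1 (1.02) or TC71 vehicle replicate 3 (1.02).

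The inhibitors moved unequally in EW8. NFKBIA was at 35.6, 42.9 and 38.0 CPM with vehicle and at 194, 212 and 189 CPM with doxycycline. The NFKBIA log2 fold change was 2.35 ± 0.09 (edgeR adjusted p = 3.5e-13). NFKBIE (IkBe) was at 8.32, 11.7 and 8.78 CPM with vehicle and at 15.6, 15.9 and 14 CPM with doxycycline, a log2 fold change of 0.66 ± 0.14 (edgeR adjusted p = 0.00074). NFKBIB (IkBb) was at 79.7, 85.8 and 89.5 CPM with vehicle and at 109, 100.2 and 88.2 CPM with doxycycline. The NFKBIB log2 fold change of 0.22 ± 0.08 (edgeR adjusted p = 0.026) did not pass without EW8 vehicle replicate 1 (0.126), EW8 vehicle replicate 2 (0.055) or EW8 doxycycline replicate 1 (0.0796), where the values in parentheses are adjusted p, or when scaled by library size alone (edgeR adjusted p = 0.088).

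TNFAIP3 and BIRC3 had the largest changes of all members in EW8. TNFAIP3 was at 4.96, 3.57 and 4.28 CPM with vehicle and at 45.2, 47.9 and 41.2 CPM with doxycycline, a log2 fold change of 3.39 ± 0.13 (edgeR adjusted p = 2.2e-13). BIRC3 was close to undetected with vehicle, with 4, 16 and 10 counts (0.09, 0.35 and 0.18 CPM), and had 876, 716 and 629 counts (15.7, 14.2 and 14.4 CPM) with doxycycline. Its log2 fold change was 6.14 ± 0.31 (edgeR adjusted p = 1.11e-11). The size of that value rests on few counts with vehicle, and it ranged from 5.82 to 6.70 over the alternatives. An antisense gene, WAKMAR2, shares 95 exon bases (1.88%) with TNFAIP3, and reads on shared bases were left out by the counter.

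The bases before the start of the members that rose most in EW8 are shown because the members moved together there. RefSeq promoter windows (GRCh38.p14, 250 bases before to 50 bases after a start) were at hand for 8 of the 10 members, in 13 windows. RELB and NFKBIE had no entry. Each window was searched on both strands for a loose kB motif (GGGNNNNNCC), for a stricter kB consensus with the inner purines and pyrimidines fixed, and for the AP-1 motif TGANTCA. Each stricter match is also a loose match. The stretches below run 5′ to 3′ on the strand of the gene and end before the gene's first base in the count table; capitals mark stricter kB matches, and those that overlap form 1 run of capitals.
NFKBIA, chr14:35404750-35404999, minus strand: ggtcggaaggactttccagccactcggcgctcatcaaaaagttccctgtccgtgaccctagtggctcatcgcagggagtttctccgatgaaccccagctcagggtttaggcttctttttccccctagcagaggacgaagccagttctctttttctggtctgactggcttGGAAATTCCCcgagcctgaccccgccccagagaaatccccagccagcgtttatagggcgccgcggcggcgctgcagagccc
BIRC3, chr11:102317234-102317449, plus strand: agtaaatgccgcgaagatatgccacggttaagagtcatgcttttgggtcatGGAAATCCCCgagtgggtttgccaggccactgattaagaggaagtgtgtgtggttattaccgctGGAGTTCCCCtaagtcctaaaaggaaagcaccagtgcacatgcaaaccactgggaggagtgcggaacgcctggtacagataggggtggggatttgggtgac
NFKB1, chr4:102501109-102501328, plus strand: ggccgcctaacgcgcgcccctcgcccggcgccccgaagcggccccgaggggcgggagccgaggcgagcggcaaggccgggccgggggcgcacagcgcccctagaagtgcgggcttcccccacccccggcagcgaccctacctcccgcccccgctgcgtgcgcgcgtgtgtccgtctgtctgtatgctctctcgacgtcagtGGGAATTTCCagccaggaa
For TNFAIP3 and NFKB2 the matches lie inside the gene as the count table defines it, and only 30 bases around matches are given.
TNFAIP3, chr6:137867188-137867217, plus strand: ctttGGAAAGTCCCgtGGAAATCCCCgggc
NFKB2, window of the second start, chr10:102394462-102394491, plus strand: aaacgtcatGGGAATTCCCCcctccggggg
NFKB2, window of the third start, chr10:102395674-102395703, plus strand: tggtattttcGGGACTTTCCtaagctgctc

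A stricter kB match was present in the windows of 7 of the 8 members, RELA being the one without, and in 8 of their 13 windows. Of all 27305 genes in the RefSeq table, 13.3% had one in a window, and of all 35116 promoter windows, 11.3% held one. The loose motif was in all 13 member windows and in 58.7% of all windows. The AP-1 motif was found in 1 member window, at NFKBIB, and in 7.71% of all windows. BIRC3 and TNFAIP3 each held 2 stricter matches, at positions -199 and -135 from the BIRC3 start and -67 and -55 from the TNFAIP3 start, and NFKBIA and NFKB1 held 1 each, at -81 and -49. NFKBIB, the member with the smallest change in EW8, held them as well, in the window of its second start. A match describes these letters only.

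In TC71, the same doxycycline treatment gave a different set of changes. NFKB2, RELB and RELA rose, NFKBIA, NFKBIB and REL fell, and NFKB1, NFKBIE, TNFAIP3 and BIRC3 did not pass. NFKB2 and RELB were the only members called, against 12.3% of all genes tested that were called higher. The 3 members that passed as higher compare with 25.1% of all genes tested, and the 3 that passed as lower with 20.4%. The median log2 fold change was 0.11 over the members and 0.00 over all genes tested.

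NFKB2 was at 14.2, 13.1 and 14.9 CPM with vehicle and at 32.6, 30.1 and 31.6 CPM with doxycycline in TC71. Its log2 fold change of 1.16 ± 0.09 (edgeR adjusted p = 2.86e-09) left the groups apart in every library. RELB was at 1.87, 3.12 and 2.48 CPM with vehicle and at 5.87, 5.35 and 4.55 CPM with doxycycline, a log2 fold change of 1.07 ± 0.17 (edgeR adjusted p = 3.5e-05). The RELB value fell under the limit of 1 without TC71 vehicle replicate 1 (0.82), which is the library that stood apart, and without TC71 doxycycline replicate 1 (0.98). RELA was at 118, 116 and 113 CPM with vehicle and at 166, 169 and 147 CPM with doxycycline, a log2 fold change of 0.47 ± 0.06 (edgeR adjusted p = 7.99e-06).

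NFKBIA was at 57.6, 44.0 and 46.3 CPM with vehicle and at 35.4, 34.2 and 36.3 CPM with doxycycline in TC71. The groups did not overlap, and the log2 fold change was -0.48 ± 0.09 (edgeR adjusted p = 0.000269). The highest NFKBIA value was in TC71 vehicle replicate 1, and the change still passed when any single library was left out. NFKBIB was at 28.5, 25.8 and 29.2 CPM with vehicle and at 21.2, 21.7 and 21.3 CPM with doxycycline, a log2 fold change of -0.38 ± 0.08 (edgeR adjusted p = 0.000864). REL was at 14.99, 16.3 and 13.1 CPM with vehicle and at 11.6, 9.30 and 13.3 CPM with doxycycline. The ranges of REL overlapped, and its log2 fold change of -0.38 ± 0.15 (edgeR adjusted p = 0.0436) did not pass without EW8 vehicle replicate 2 (0.0524), TC71 vehicle replicate 2 (0.157), TC71 doxycycline replicate 1 (0.0855) or TC71 doxycycline replicate 2 (0.218), the values in parentheses being adjusted p, or in a fit of the TC71 groups alone (edgeR adjusted p = 0.0596).

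The feedback genes that rose most in EW8 did not pass in TC71. TNFAIP3 was at 11.4, 13.04 and 12.96 CPM with vehicle and at 13.1, 16.1 and 15.6 CPM with doxycycline, a log2 fold change of 0.26 (95% interval 0.01 to 0.51, edgeR adjusted p = 0.0891). It passed without TC71 doxycycline replicate 1 (0.34, edgeR adjusted p = 0.0413). BIRC3 was at 1.20, 1.48 and 1.40 CPM with vehicle (63, 92 and 72 counts) and at 0.95, 1.24 and 1.73 CPM with doxycycline (39, 52 and 76 counts). The BIRC3 groups overlapped, and the log2 fold change was -0.06 (95% interval -0.60 to 0.49, edgeR adjusted p = 0.895). For NFKBIE, at 4.70–5.51 and 5.14–5.40 CPM, the log2 fold change was 0.01 (95% interval -0.30 to 0.32, edgeR adjusted p = 0.965). NFKB1 was at 31.2, 29.02 and 29.3 CPM with vehicle and at 35.9, 31.8 and 35.4 CPM with doxycycline, a log2 fold change of 0.20 (95% interval 0.01 to 0.40, edgeR adjusted p = 0.0834) that passed without EW8 vehicle replicate 2 (edgeR adjusted p = 0.0415). These intervals are not adjusted for the number of genes.

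**Figure D2:**
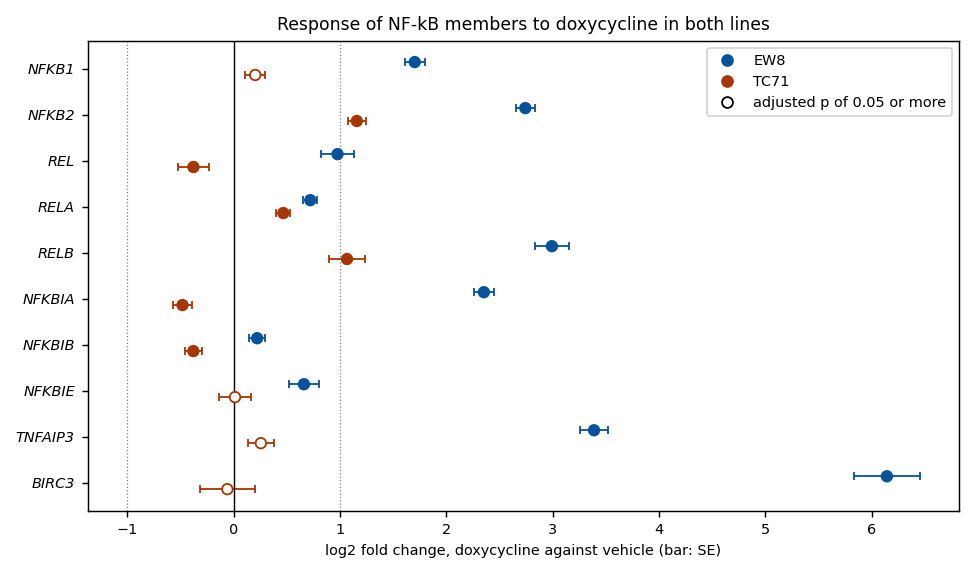
Log2 fold change of each member with doxycycline against vehicle (x axis) in EW8 (blue) and TC71 (brown), with its standard error; filled points passed at an adjusted p under 0.05 and dotted lines mark log2 changes of -1 and 1. Every EW8 point lies to the right of the TC71 point of the same gene, from 0.25 apart for RELA to 6.20 apart for BIRC3.

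The difference between the lines was tested as an interaction term, the response in TC71 minus the response in EW8. It passed for 9 of the 10 members, and for all 9 the response was larger in EW8, against 7.07% of all genes tested that passed in that direction. The median difference was -1.54 over the members and 0.04 over all genes tested. The number of all genes that passed depended on the library that stood apart. In that direction 1485 of 21013 genes passed, against 3095 of 21905 without TC71 vehicle replicate 1 and 2053 of 21013 with DESeq2. Without that replicate the median over all genes tested was -0.06. That shift was not particular to it, as the median was -0.07 without EW8 vehicle replicate 3 and -0.06 without EW8 doxycycline replicate 1. The largest differences were those of BIRC3 (-6.20 ± 0.41, edgeR adjusted p = 4.12e-09), TNFAIP3 (-3.13 ± 0.17, edgeR adjusted p = 4.43e-10) and NFKBIA (-2.83 ± 0.13, edgeR adjusted p = 2.91e-11). RELB (-1.93), NFKB2 (-1.59), NFKB1 (-1.50) and REL (-1.35) followed, and NFKBIB (-0.60) and NFKBIE (-0.65) differed least among those that passed. The NFKBIE difference did not pass without EW8 vehicle replicate 1, TC71 vehicle replicate 2 or any one TC71 doxycycline library (adjusted p between 0.0512 and 0.0874). RELA, at -0.25 (95% interval -0.45 to -0.06, edgeR adjusted p = 0.0595), just missed the threshold. It passed under 11 of 19 alternatives, among them DESeq2 (adjusted p = 0.0154) and the fit without TC71 vehicle replicate 1 (edgeR adjusted p = 0.00241).

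The lines already differed with vehicle, and not in a single direction. TNFAIP3, BIRC3 and REL were called higher in TC71 than in EW8 (11.6% of all genes tested), and NFKBIB was called lower (18.9% of all genes tested). BIRC3 was higher in TC71 by a log2 fold of 2.71 ± 0.33 (edgeR adjusted p = 9.84e-07), REL by 1.56 ± 0.15 (edgeR adjusted p = 5.38e-08) and TNFAIP3 by 1.55 ± 0.13 (edgeR adjusted p = 5.5e-09). NFKBIB was at 27.8 ± 1.76 CPM (SD, n = 3) in TC71 and 84.99 ± 4.92 CPM in EW8, a log2 fold of -1.61 ± 0.08. NFKB1, NFKB2 and NFKBIA were higher in TC71 by log2 folds of 0.34, 0.33 and 0.34, and RELB and NFKBIE were lower by log2 folds of -0.75 and -0.87. All of these passed. RELA was at 116 CPM in both lines, with a log2 fold of -0.00 (95% interval -0.14 to 0.13, edgeR adjusted p = 0.972).

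With doxycycline the members lay on one side. NFKB1, NFKB2, RELB, NFKBIA, NFKBIB, NFKBIE, TNFAIP3 and BIRC3, 8 of the 10, were called lower in TC71 than in EW8, against 18.4% of all genes tested. TNFAIP3 and BIRC3 thereby changed sides between the conditions. After induction TNFAIP3 was at 44.8 ± 3.41 CPM (SD, n = 3) in EW8 and 14.9 ± 1.60 CPM in TC71, and BIRC3 was at 14.7 ± 0.83 and 1.31 ± 0.40 CPM. The log2 folds were -1.59 ± 0.12 and -3.49 ± 0.25. RELB (-2.68), NFKBIA (-2.49) and NFKBIB (-2.21) differed by more than 4-fold. RELA passed with a log2 fold of -0.26, and REL, at 9.87 ± 1.30 CPM in EW8 and 11.4 ± 2.01 CPM in TC71, did not pass (0.21, 95% interval -0.10 to 0.52, edgeR adjusted p = 0.231).

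Levels of different genes were compared per length, as CPM per kilobase of exon. In EW8 with vehicle, NFKBIB (36.6 ± 2.12, SD), RELA (21.3 ± 0.73) and NFKBIA (16.4 ± 1.57) stood far above the rest, and the order went on with NFKB1, NFKBIE, NFKB2, RELB, TNFAIP3, REL and BIRC3 (0.03 ± 0.02). NFKB1 and NFKBIE overlapped, and no other neighbours in that order did. In EW8 with doxycycline NFKBIA led at 83.7 ± 5.06, ahead of NFKBIB (42.6 ± 4.48) and RELA (35.1 ± 2.60). NFKB2 (16.8 ± 1.44) then lay above NFKB1 (12.3 ± 0.48) and RELB (11.1 ± 1.03), of which the last 2 overlapped. In TC71, RELA led in both conditions, at 21.2 ± 0.49 with vehicle, where its range overlapped that of NFKBIA (20.8 ± 3.07), and at 29.4 ± 2.13 with doxycycline, where it did not (14.9 ± 0.43). REL and RELB overlapped in TC71 with vehicle. BIRC3 was the lowest in TC71 in both conditions, at 0.18 ± 0.02 and 0.17 ± 0.05. REL is understated on this scale, since 5702 of its exon bases (43.3%) are shared with another gene model that had 0 counts and reads there were left out. With only the remaining bases, REL was at 0.67, 1.32, 1.98 and 1.53 CPM per kilobase in EW8 vehicle, EW8 doxycycline, TC71 vehicle and TC71 doxycycline.

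The make-up of the subunit RNA was then compared within each line. RELA made up 72.6% ± 1.51 (SD, n = 3) of the summed subunit level in EW8 with vehicle and 46.2% ± 1.03 with doxycycline. The NFKB2 share was 8.52% ± 0.48 and 22.1% ± 0.43, and the RELB share 4.73% ± 0.29 and 14.5% ± 0.37. In TC71, RELA made up 68.3% ± 0.43 with vehicle and 66.0% ± 2.26 with doxycycline, and these ranges overlapped (two-sided exact permutation p = 0.2). The TC71 share of NFKB2 was 10.1% ± 0.75 and 15.8% ± 0.92, and that of RELB 2.65% ± 0.68 and 3.89% ± 0.32. The smallest p that 3 against 3 libraries allow is 0.1, which was reached by all subunit shares except that of RELA in TC71. With 3 against 3 libraries, none of the 14 comparisons of composition could pass 0.05. The NFKB1 share was 12.9% and 16.2% in EW8 and 15.3% and 12.4% in TC71. The REL share was 1.30% and 0.99% in EW8 and 3.62% and 1.96% in TC71; with the shorter REL length it was 2.27%, 1.73%, 6.20% and 3.40%.

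The summed level of the 3 IkB inhibitors over that of the 5 subunits was 1.93 ± 0.11 in EW8 with vehicle and 1.74 ± 0.03 with doxycycline. In TC71 it was 1.12 ± 0.10 and 0.59 ± 0.03. Both differences reached the smallest p the design allows (two-sided exact permutation p = 0.1). NFKBIA made up 28.9% ± 1.39 of the inhibitor level in EW8 with vehicle and 63.3% ± 2.25 with doxycycline, against 59.6% ± 2.82 and 56.9% ± 1.00 in TC71 (two-sided exact permutation p = 0.2). The absolute ratio depends on the length scaling, and in plain CPM it was 0.83, 0.81, 0.46 and 0.26.

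**Figure D3:**
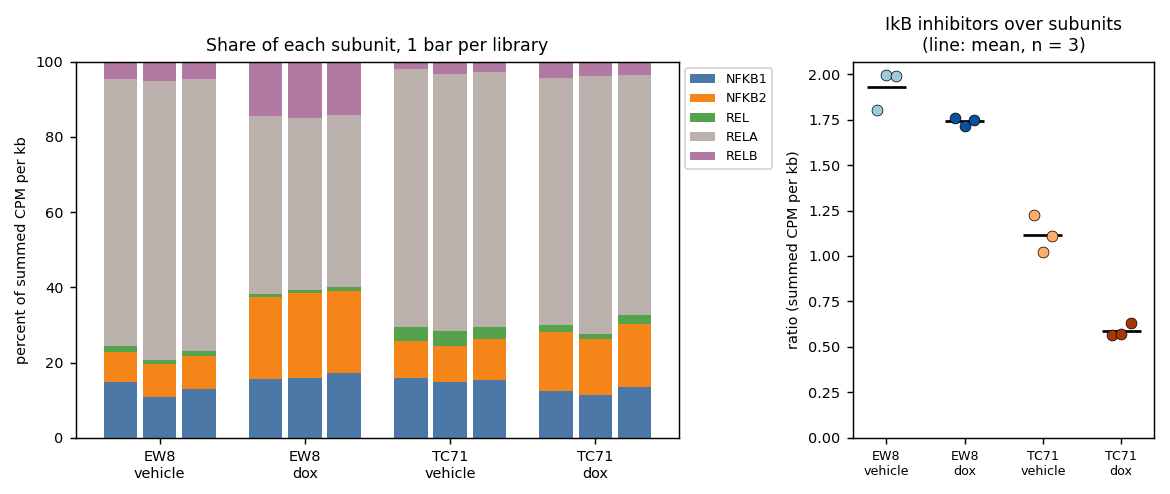
Left, percent of the summed subunit level (CPM per kilobase) taken by each of the 5 subunits, with 1 bar for each library; right, summed level of NFKBIA, NFKBIB and NFKBIE over the summed subunit level, with points for libraries and lines for means. The RELA share is 45.6–47.4% in the EW8 doxycycline libraries and 63.9–74.2% in all others, and the ratio is lowest, 0.56–0.63, in TC71 with doxycycline.

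Other genes of the pathway were read from lists written from general knowledge, but with earlier results of these data known. The 3 atypical IkB proteins all rose in EW8, and 1 rose in TC71, against 21.9% and 25.1% of all genes tested. NFKBIZ (IkBz, an inducible nuclear cofactor) rose from 2.45 to 65.6 CPM in EW8 and from 1.69 to 8.36 CPM in TC71, log2 fold changes of 4.74 ± 0.18 and 2.32 ± 0.19 (edgeR adjusted p = 2.44e-13 and 7.8e-09). BCL3, which binds p50 and p52 dimers, rose in EW8 (2.31 ± 0.22). All 3 differences between the lines passed, with a larger response in EW8, against 7.07% of all genes tested.

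Of 21 genes for IkB kinases and their adaptors, which act above IkB, 3 were called higher in EW8 and 1 in TC71, against 11.4% and 12.3% of all genes tested. In the same list 13 rose and 3 fell in EW8 and 13 rose and 4 fell in TC71, with medians of 0.43 and 0.30 on the log2 scale. The number that rose was 12 to 14 in EW8 and 9 to 13 in TC71 when single libraries were left out. Over all genes tested, 21.9% passed as higher and 22.0% as lower in EW8, and 25.1% and 20.4% in TC71. IRAK2 and IRAK1, kinases of interleukin-1 receptor signaling, had the largest changes in both lines, at 2.40 and 1.31 in EW8 and 2.05 and 0.84 in TC71. The difference between the lines passed for 4 of these 21 genes, 3 with the larger response in EW8 and 1 in TC71, against 7.07% and 12.2% of all genes tested. Without TC71 vehicle replicate 1, 3095 and 2071 of all 21905 genes tested passed in these directions. The non-canonical arm, which leads to p100 processing, was set against the same shares that passed as higher or lower. Of its 9 tested genes, 6 rose and 2 fell in EW8 and 7 rose and 1 fell in TC71. TNFRSF12A (the receptor of TWEAK) rose by 5.22 ± 0.11 in EW8, to 203.1 CPM, and by 4.67 ± 0.11 in TC71, to 277.0 CPM. TRAF1, an adaptor and known NF-kB target, rose by 4.52 ± 0.14 and 3.29 ± 0.16. Of 5 genes for IKK-related kinases and their adaptors, 1 rose in EW8 and 2 rose and 1 fell in TC71. Over all genes tested, 21.9% passed as higher in EW8, and 25.1% passed as higher and 20.4% as lower in TC71. IKBKE rose by 1.26 in EW8 and 0.51 in TC71, and TBKBP1 fell by 0.58 in TC71.

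Of 16 other negative regulators, 11 rose and 1 fell in EW8, and 11 rose and none fell in TC71. Over all genes tested, 21.9% passed as higher and 22.0% as lower in EW8, and 25.1% and 20.4% in TC71. By size, TNIP3 (4.004 ± 0.42) and ZC3H12A (regnase-1, 3.17 ± 0.12) led in EW8, and PDLIM2 (2.23 ± 0.32) and NLRC5 (1.78 ± 0.23) in TC71. The difference between the lines passed for 6 of the 16, of which 5 were larger in EW8. Over all genes tested, 7.07% passed as larger in EW8 and 12.2% as larger in TC71.

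The ligands, receptors and targets held the largest changes. Of 9 tested receptor genes, 6 rose and 1 fell in each line. Over all genes tested, 21.9% passed as higher and 22.0% as lower in EW8, and 25.1% and 20.4% in TC71. IL1R1, the signaling receptor of interleukin-1, rose from 0.13 to 48.9 CPM in EW8 and in TC71 from 0 counts to 0.54 CPM, at least 4.60-fold higher against a floor of 6 counts per library. IL1RAP, from the same list, went the other way, from 262.8 to 128.0 CPM in EW8 and from 217.0 to 103.3 CPM in TC71. TLR6 rose by 2.46 in EW8, and TNFRSF1B rose at least 15.2-fold in TC71. Of 7 tested cytokine genes, 6 rose in EW8 and 4 in TC71, against 21.9% and 25.1% of all genes tested. IL18 and IL33 passed the filter on low counts only through EW8 with doxycycline, so their rise there was fixed by it. IL1A rose by 9.23 ± 0.21 in EW8, to 234 CPM, and by 6.05 ± 0.29 in TC71, to 8.55 CPM, and IL1B rose by 7.54 ± 0.15 in EW8, to 841 CPM. IL33 was at 0.17 CPM with doxycycline in TC71 and at 0 counts with vehicle, at least 1.49-fold higher.

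Of 23 tested classical target genes, a list that shares NFKBIZ, BCL3, TRAF1 and IL1B with those above, 19 rose and none fell in EW8, whereas 12 rose and 1 fell in TC71. The list held 27 genes, and those with too few counts were not tested. CXCL1, CXCL3 and IL6 had 0 counts in all TC71 libraries and at most 2 in any EW8 vehicle library. They entered the test only through EW8 with doxycycline, so their rise there was fixed by the filter. Such genes add to the EW8 count and median. The median of the 23 genes was 3.63 in EW8 and 1.51 in TC71 (1.37 over the 18 genes above the floor, with those at the floor in one group set to their bound), against medians of -0.03 and 0.00 over all genes tested. Over all genes tested, 21.9% passed as higher and 22.0% as lower in EW8, and 25.1% and 20.4% in TC71. CXCL8 (interleukin-8) reached 805 CPM in EW8, at least 5946-fold higher than with vehicle, and 2.48 CPM in TC71, at least 21.3-fold higher. CXCL2 rose at least 648-fold in EW8, to 87.6 CPM, and BCL2A1 rose at least 64.3-fold in TC71, to 7.49 CPM. The interaction term passed for 7 of the 23, all with the lower value in TC71, against 7.07% of all genes tested. It cannot separate the lines where a gene had no counts with vehicle in either.

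**Figure D4:**
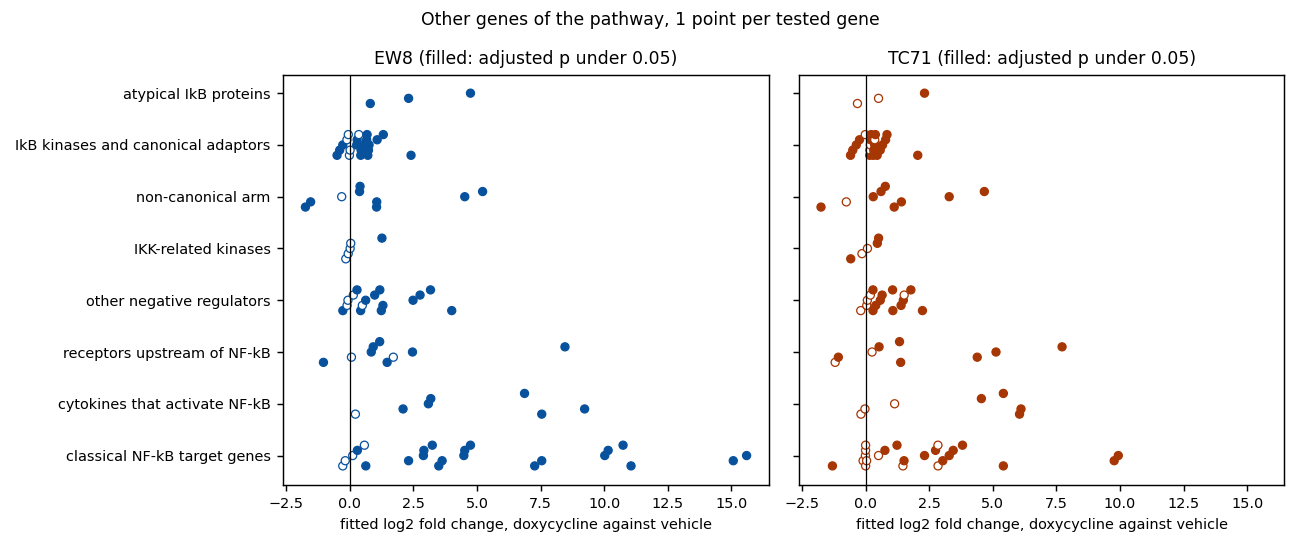
Fitted log2 fold change with doxycycline against vehicle (x axis) of every tested gene in 8 lists of the pathway (rows), in EW8 (left) and TC71 (right); filled points passed at an adjusted p under 0.05. Kinases and adaptors cluster near 0 in both lines (medians of 0.43 and 0.30), whereas target genes extend far to the right; the largest values belong to genes near 0 counts with vehicle and depend on the prior count.

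Genes whose pattern was most like each member were taken by Pearson's r of log2 CPM over the 12 libraries among 14415 other genes that have a symbol and a mean of at least 1 CPM, as a description. They all share the 4 groups, so that a high r needs only similar group means. For NFKB2 these were MYPN, OASL and PLTP (r = 0.989 to 0.995), and for RELB GLI3, IFIT3 and IFI6 (0.99 each). Among the genes nearest to NFKB1 were PLSCR1 and HTT (0.977 and 0.975). RELA was nearest to DAPK3, DUSP1 and TNFRSF19 (0.985 to 0.987), and REL to ZNF641, WTAP and THBS2 (0.945 to 0.958). NFKBIA was nearest to OLR1, KRT75 and IL6 (0.98 each), which were near 0 in all groups but EW8 with doxycycline. NFKBIB was nearest to SUCNR1, SLC12A7 and GPR173 (0.994 to 0.995) and NFKBIE to AFF3, LINC00944 and EDN1 (0.98 to 0.99), which were low in TC71. TNFAIP3 was nearest to B4GALT1, BCL6 and DNAJC12 (0.975 to 0.986). Among those nearest to BIRC3 were GPAT3 and NALF2 (0.974 and 0.971). Among the members, TNFAIP3 and BIRC3 were each other's nearest (0.96), as were NFKB2 and RELA (0.97) and NFKBIB and NFKBIE (0.93). REL had no member above 0.55.

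Within 250 kb of the members, 103 neighbouring genes were tested. In EW8, 13 of them were called higher and 1 lower, and in TC71, 6 higher and 4 lower. Over all genes tested, 11.4% were called higher and 3.38% lower in EW8, and 12.3% and 3.67% in TC71. Those called in both lines included MANBA, 13.5 kb from NFKB1 (1.08 in EW8 and 1.49 in TC71), and PERP, 205.2 kb from TNFAIP3 (2.64 and 1.62). LTBP3 (1.48 and 1.33) and FOSL1 (6.86 and 5.54), 94.7 and 229.0 kb from RELA, were called in both as well. So was BCAM (-1.16 and -1.43), 180.0 kb from RELB. ACP7, 175.0 kb from NFKBIB, was also called in both (4.396 in EW8). In TC71 it had 0 counts with vehicle and a mean of 0.11 CPM with doxycycline. FOSL1 encodes Fra-1, an AP-1 subunit. BIRC2 (cIAP1), the paralog that lies 7.8 kb from BIRC3, rose from 31.0 to 64.4 CPM in EW8 and from 40.7 to 69.7 CPM in TC71. Its log2 fold changes were 1.06 and 0.77, where those of BIRC3 were 6.14 and -0.06. NFKB2, REL and NFKBIA had 13, 10 and 4 tested genes around them, of which none was called in either line.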

How the data were processed

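RNA was sequenced by the authors (TruSeq stranded, polyA-selected, paired-end), aligned to hg38 with STAR and counted per gene with featureCounts 2.0.1 on GENCODE 29. The deposited counts are raw counts per gene. Per the file headers, no strand, pair or multi-mapping options were set, so mates were counted singly, sense and antisense reads cannot be told apart, and reads on shared exons were left out. Groups came from the labels. Here, counts were scaled by TMM and genes with few counts were filtered (filterByExpr), which left 21013 genes with 99.95% of counts. All 12 libraries entered 1 fit in edgeR 4.0.16 (R 4.3.3), with 5 contrasts. The authors' test, DESeq2 (1.42.0), was an alternative. Composition was compared with an exact permutation test. The pipeline was tested on simulated data. Symbols were matched for 99.1% of genes.

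The members and lists were chosen with earlier results of these data known. The text names all 10 members in every group, from each other list the 2 genes with the largest log2 fold change per line among those that passed and had a group mean of at least 1 CPM, the 3 genes most like each member (2 of these genes are not reported here), and neighbours called in both lines; BIRC2 is named beside BIRC3 as its paralog, chosen after its values were seen. IL1RAP and EPCAM were also named after their values were seen. Same-numbered libraries did not deviate together, so replicate numbers were not used as pairs. A floor of 6 counts (3 read pairs) per library was used for genes with no more than that in any library of a group, and it covers counting error only. Protein sequences were not used here.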

Additional observations from a re-analysis of the deposited data

Results flagged for a closer look

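For 9 members the response to doxycycline differed between EW8 and TC71 by the interaction term of the edgeR fit, given as the log2 response in TC71 minus that in EW8. The values were -1.50 for NFKB1, -1.59 for NFKB2, -1.35 for REL, -1.93 for RELB, -2.83 for NFKBIA, -0.60 for NFKBIB, -0.65 for NFKBIE, -3.13 for TNFAIP3 and -6.20 for BIRC3. For NFKBIA, NFKBIB and REL the direction itself differed, as all 3 rose in EW8 and fell in TC71, although the rise of NFKBIB and the fall of REL were each lost when certain single libraries were left out. With doxycycline JUN and FOS were higher in TC71 than in EW8 (log2 folds of 0.67 and 0.55, edgeR adjusted p = 1.62e-05 and 2.03e-07, at 705–814 against 422–504 CPM and 1450–1686 against 999–1139 CPM), and the part of these levels in the differences was not tested.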

How the results depend on the processing

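Of 50 log2 fold changes (10 members in 5 comparisons), 41 kept their direction and their side of the adjusted p threshold under every alternative, and 932 of the 985 values did. Those that turned sign lay near 0. NFKBIE in TC71 (0.01) was -0.016 with RLE normalization, -0.082 with library size alone, -0.028 with at least 10 counts in every library and -0.017 with DESeq2, and -0.101 to 0.052 when single libraries were left out. BIRC3 in TC71 ranged from -0.315 to 0.128 when single libraries were left out. RELA between the lines with vehicle (-0.00) was 0.01 with RLE normalization, 0.043 with at least 10 counts in every library, 0.01 with DESeq2 and 0.027 with only the groups of the contrast, and ranged from -0.025 to 0.091 when single libraries were left out. The number of members called higher in TC71 was 1 in place of 2 with library size alone, and 1 to 2 when single libraries were left out. Without the fold limit, 10 members counted as higher in EW8, 3 as lower in TC71, and 6 as higher and 3 as lower in TC71 against EW8 with vehicle. The inhibitor ratio without length scaling was 0.83 and 0.81 in EW8 and 0.46 and 0.26 in TC71.

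Same-numbered libraries did not deviate together (correlations of -0.03 to 0.01), and in neither line did every library correlate best with its own number. With the number as a replicate block, the adjusted p of NFKBIB in EW8 became 0.0563 and that of REL in TC71 0.0793, and no other member changed its side of the threshold. BIRC3 was not tested with at least 10 counts in every library, since 1 library held 4. That filter also left fewer listed genes, and 7 and 6 classical targets passed as higher in EW8 and TC71. Settings for the listed genes and the shorter REL length were chosen after seeing the data. For BIRC3, depth limits the EW8 vehicle level, which rests on 4 to 16 counts.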

Other observations

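TNFRSF11A (RANK), a receptor of the non-canonical arm that was singled out after its values were seen, had log2 fold changes of -1.75 in EW8 and 1.41 in TC71, and the difference of 3.15 passed (edgeR adjusted p = 1.6e-06). CD83, a listed target gene, fell by 1.30 in TC71 (edgeR adjusted p = 4.49e-08) and did not pass in EW8 (-0.28, edgeR adjusted p = 0.0528). The members known as NF-kB-inducible (8 of the 10) had a median log2 fold change of 2.55 in EW8 and 0.11 in TC71. For the pair left, RELA and NFKBIB, the median was 0.47 in EW8 and 0.05 in TC71. In EW8 RELA was at 0.72 and NFKBIB at 0.22, and in TC71 they were at 0.47 and -0.38. The members were split in this way with earlier results of these data known. The part of NF-kB in these values was not tested.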
